A study of Sus scrofa with 10 samples.

Results

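Psoas major and longissimus dorsi are the pair of skeletal muscles in a set of 10 RNA-seq libraries from the domestic pig, and the comparison rests on 2 of those 10 libraries. The psoas major library and the longissimus dorsi library each came from a 60-day-old pig of the Northeast Min breed. The labels name neither the animals nor their sex, and do not say whether both muscles came from 1 animal or whether tissue was pooled. Total RNA was isolated with TRIzol, and an Illumina TruSeq RNA kit gave the libraries that were sequenced. With 1 library per muscle no difference has a replicate check, so sizes are given with no p-value and no error, and a difference between the muscles cannot be told apart from a difference between pigs, dissections or libraries.

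The psoas major lies deep beside the lumbar vertebrae and runs to the femur, where it flexes the hip. The longissimus dorsi is the long extensor of the back. Back extensors form from the dorsal (epaxial) part of the somites, and muscles of the ventral body wall and limbs from the hypaxial part, and each keeps part of the transcription factor code of its origin into later life. A muscle also holds satellite cells, fibroblast-like progenitors, vessels, nerve, fat and macrophages, and bulk RNA sums over all of them. In such values fewer cells of a type and less RNA per cell cannot be told apart.

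Values were read as FPKM, fragments counted per length of transcript and per size of the library, which corrects for length and library size. Levels were compared as log2(FPKM + 1), psoas minus longissimus, over the 10508 genes at 1 FPKM or more in either muscle, of which 9777 have a symbol. The median difference was 0.27, and 76.1% of the genes were above 0. The FPKM sum was 318132 in psoas and 369254 in longissimus, and the 100 most abundant genes held 49.3% of the first and 61.7% of the second. Without them the order of the sums turned, at 161341 in psoas and 141309 in longissimus. A gene was therefore called only when it differed 2-fold or more both as deposited and after subtraction of the median. This gave 226 genes higher in psoas (2.15% of those compared) and 218 higher in longissimus (2.07%), or 4.23% in either direction. These shares are the background for every count of calls below. The split depends on the centring: as deposited it was 488 (4.64%) to 218 (2.07%), and after centring alone 226 (2.15%) to 395 (3.76%). With median-of-ratios factors taken over the 10 libraries it was 320 to 515. Libraries scaled to an equal sum gave 229 to 158 and ended 13 named calls, of which that of ERN1 was towards psoas. Those towards longissimus were GAPDH, TNNT3, MYBPC2, MSTN, HOXD9, NR4A1, COL6A6, PCOLCE2, GSN, CREBL2 (overlapping DUSP16), PDLIM7 and USF2 (overlapping HAMP). The steps between values of short genes put the depth near 11.5 M fragments in psoas and 13 M in longissimus, uncertain by a factor of 2, so that 1 FPKM stands for about 11.5 and 13 fragments per kilobase.

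Values of exactly 0 need care in this table. The ubiquitous early-response genes JUNB, JUND and IER2 were listed at 0 in all 10 libraries. THAP11, HEXIM1, MID1IP1 and CLEC14A, all listed at 0 in longissimus and at 9.22 FPKM or more in psoas, were at 0 in 5 to 7 of the 10 libraries. UBQLN2, SMIM10L1 and APLNR, listed at 0 in psoas and at 8.53 FPKM or more in longissimus, were at 0 in 4 to 6. There were 11 genes listed at 0 in longissimus and at 2 FPKM or more in psoas, and 23 genes in the opposite state. Of these, 6 and 21 were also at 0 in at least 1 and at 2 FPKM or more in at least 1 of the other 8 libraries. No fold is given against a value of 0.

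**Figure D1:**
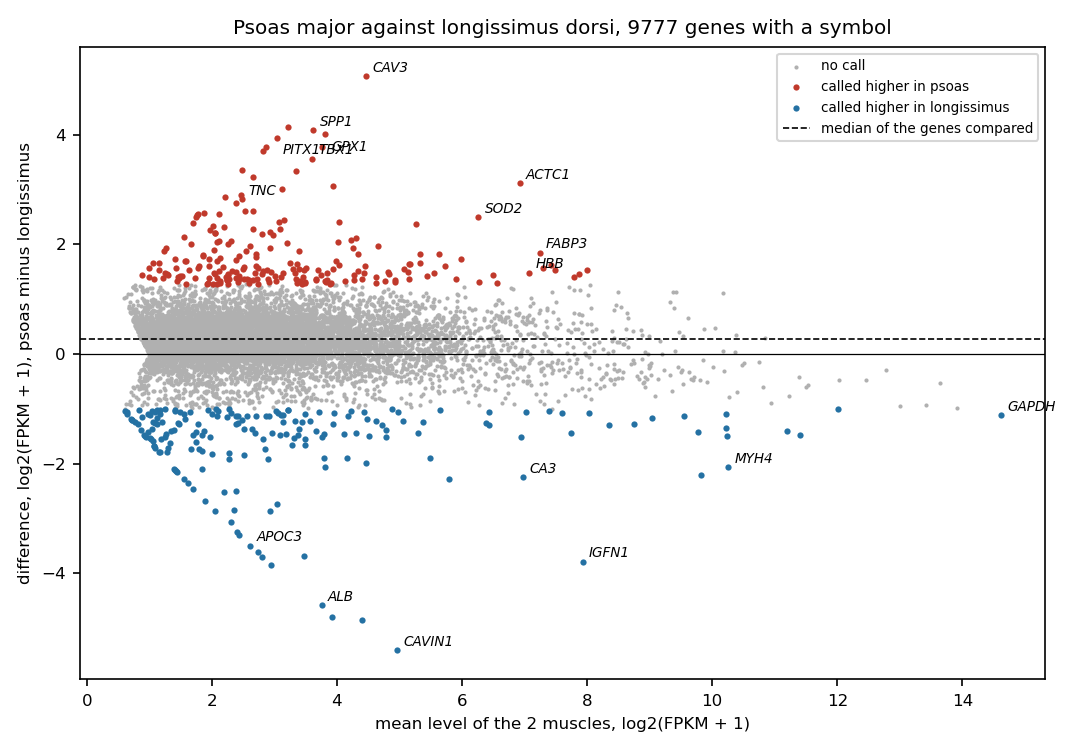
Each point is a gene with a symbol, with the mean level of the 2 muscles on the x axis and the difference, psoas minus longissimus, on the y axis, both on the log2(FPKM + 1) scale. Most points lie above 0, around the dashed median of 0.27. Red and blue points are the genes called higher in psoas and in longissimus, and the most abundant gene, GAPDH, lies below the median.

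The labelled tissue was checked against contractile genes first. Skeletal actin (ACTA1) stood at 10454 FPKM in psoas and 20549 in longissimus, and desmin (DES), the intermediate filament of muscle, at 1487 and 1164. Both libraries thus carried muscle transcripts at high levels. Of 12 fast fibre genes compared, 4 were called higher in longissimus, none was called higher in psoas, and all 12 lay below the median of all genes. With libraries scaled to an equal sum 2 of the 4 calls ended, those of TNNT3 (-0.80) and MYBPC2 (-0.87). Fast myosin heavy chain MYH4 (ENSSSCG00000018003, chromosome 12, 55190601 to 55215951) read 473 FPKM in psoas and 1966 in longissimus, a difference of -2.05. Of 11 slow fibre genes compared, none was called and 8 lay above the median. FABP3, the fatty acid carrier of oxidative muscle, read 236 FPKM in psoas and 64.6 in longissimus, a difference of 1.85. Among 14 glycolysis genes 4 were called higher in longissimus, and HK2 was called higher in psoas. These fibre and energy differences set the frame for what follows and are not pursued further.

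The position code of the muscles gave some of the largest differences. PITX1, a homeodomain factor known for hindlimb identity (ENSSSCG00000036741, Sscrofa11.1 chromosome 2, 137198870 to 137212568), read 14.4 FPKM in psoas and was listed at 0 in longissimus. Its highest value in any other library was 0.67 FPKM, in lung, and it was at 0 in 3 of the 10 libraries, so psoas was the only one above 1. TBX1, a T-box factor known from head and pharyngeal muscle (ENSSSCG00000037762, chromosome 14, 51289315 to 51297209), read 21.4 FPKM in psoas and 0.891 in longissimus, a difference of 3.57. It reached 2.55 FPKM in ovary and 2.27 in lung. LBX1, which marks muscle precursors that migrate to the limb, read 4.62 FPKM in psoas and 0.618 in longissimus (1.80). These 3 genes were called higher in psoas. Changed folds aside, PITX1 and TBX1 kept the call in every other setting that compared them, and LBX1 did not.

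Other position factors read higher in longissimus. ZIC1, a zinc finger factor of the dorsal somite and dorsal neural tube, read 0.0344 FPKM in psoas and 1.51 in longissimus (-1.28). MEOX2, a somite homeobox gene, read 1.04 and 4.78 (-1.50). EYA4, a coactivator of muscle homeodomain factors, was uncalled at 10.4 and 12.998. Of 27 position factors compared (52 on the list), 3 were called higher in psoas and 3 higher in longissimus, against 2.15% and 2.07% of all genes, and their median difference was 0.21 against 0.27 over all genes. Uncalled members included TBX15, the most abundant, at 42.0 FPKM in psoas and 23.6 in longissimus (0.81), and IRX5 at 2.15 and 0.551 (1.02). IRX5 passed 2-fold as deposited but not after centring.

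HOX genes, which encode position along the body and limb axes, split by member. HOXA10 (chromosome 18, 45393945 to 45402617) read 8.16 FPKM in psoas and 0.351 in longissimus, a difference of 2.76, and kidney was the only library above psoas, at 26.5 FPKM. HOXA9 read 8.28 and 3.77 (0.96) and HOXC11 read 1.23 and 0.0420 (1.10), both uncalled. On the other side HOXC8 read 0.628 FPKM in psoas and 4.52 in longissimus (-1.76). HOXC9 read 2.38 and 6.79 (-1.21), and HOXD9 read 1.82 and 4.80 (-1.04). HOXA9 and HOXA10 thus read higher in psoas, and HOXC8 and HOXC9 higher in longissimus. Of the 8 genes of paralogue groups 1 to 8 that were compared, 1 was called, and of the 6 of groups 9 to 13, 3 were called, 1 towards psoas and 2 towards longissimus. The most abundant member, HOXD8, read 10.6 and 15.2 (-0.47) and was not called.

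Of 33 regulators of fibre type and energy use compared, 4 were called higher in psoas and 2 in longissimus, and their median was 0.15. Over all genes the shares called were 2.15% and 2.07%. PPARGC1A, the coactivator that drives mitochondrial genes, read 6.84 FPKM in psoas and 2.03 in longissimus (1.37). Its partners PPARA and ESRRG read 7.53 and 2.29 (1.37), and 2.56 and 0.286 (1.47). BCL6, a zinc finger repressor, read 50.2 and 18.9 (1.36). MAF, a large bZIP factor of the family tied to fast myosin genes, read 14.2 FPKM in psoas and 36.3 in longissimus (-1.29), and the orphan receptor NR4A1 read 10.3 and 23.7 (-1.12). The other fibre regulators on the list were within 2-fold, such as SOX6 at 5.66 and 5.58 and NFATC1 at 3.49 and 3.56.

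Among 24 myogenic regulators compared, YAP1, the Hippo pathway coactivator, was the only one called, at 8.88 FPKM in psoas and 2.24 in longissimus (1.61). MYOD1 read 6.98 and 13.3 (-0.84) and SRF 8.11 and 14.9 (-0.80), both uncalled, while MYOG, MYF6 and PAX7 differed by 0.20 or less in size. Immediate early genes, which respond quickly to activity and injury, had 2 calls towards psoas and 1 towards longissimus among 24 compared, with a median of 0.51. FOS read 10.4 FPKM in psoas and 1.51 in longissimus (2.19), and EGR1 read 6.68 and 0.902 (2.01). NR4A1 went the other way, and 18 of the 24 compared lay above the median. The circadian clock list had no call among 16 compared, and NR1D1 read 13.5 and 13.6 FPKM. Over all genes whose symbol names a transcription factor family, 16 of 324 (4.94%) were called towards psoas and 12 (3.70%) towards longissimus. The shares of all genes compared were 2.15% and 2.07%.

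Growth signalling differed in single members rather than whole pathways. In the TGF-beta family, myostatin (MSTN), the secreted restraint on muscle size, read 2.18 FPKM in psoas and 5.73 in longissimus (-1.08, or -0.92 with libraries scaled to an equal sum, which is no call), the only call among 8 ligands compared. Its binding protein follistatin (FST) read 5.26 and 10.4 (-0.87), so ligand and antagonist were both lower in psoas, the second uncalled. No antagonist was called among 12. Among receptors and effectors, the type II receptor gene TGFBR2 was level, at 11.0 and 10.9. The BMP target ID3 read 30.1 and 14.2 (1.03), above 2-fold only before centring.

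In insulin signalling, the docking protein IRS1 read 7.12 FPKM in psoas and 0.112 in longissimus (2.87), and the adaptor GRB14, an inhibitor of the insulin receptor, read 3.79 and 0.0886 (2.14). The table has IRS1 at 0 in lung, kidney, ovary and the pool, and its highest value outside psoas was 2.48 FPKM, in heart and adipose tissue. The receptor itself was close in both muscles, with INSR at 2.77 and 2.35. SOCS3, a brake on cytokine and insulin signals, read 2.90 and 0.639 (1.25), just short of a call. The IGF ligands were uncalled, IGF1 at 2.60 and 4.73 (-0.67) and IGF2 at 35.3 and 54.2 (-0.60). The FGF inhibitor SPRY1, a marker of quiescent satellite cells, read 0.0949 FPKM in psoas and 2.77 in longissimus (-1.78), and was the only call among 16 FGF genes and also among 13 satellite cell markers. The growth factor EGF read 8.24 and 24.5 (-1.46), while its receptor EGFR read 5.52 and 6.04.

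Hormone and calcium signalling added further psoas genes. DIO2, the deiodinase that makes active thyroid hormone inside the cell, read 4.49 FPKM in psoas and 0.0417 in longissimus (2.40), above its level in liver (2.68), the highest of the other single tissues. KLF9, a thyroid and glucocorticoid target, read 5.78 and 1.65 (1.35), while the receptor genes THRA (overlapping NR1D1) and THRB read 25.4 and 20.0, and 3.01 and 3.76. These were the 2 calls among 23 genes. Of 26 calcium and calcineurin genes, the calcineurin regulators RCAN1 and RCAN2 were called, at 18.5 and 6.17 (1.45) and at 13.6 and 3.96 (1.56), and the calcineurin subunit genes PPP3CA and PPP3CB were not, at 22.8 and 26.6 and at 42.7 and 35.0. No call was made among 18 Notch, 4 hedgehog, 19 adrenergic and cyclic AMP, 17 Wnt receptor and target or 16 neuromuscular junction genes.

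Wnt ligands and secreted modulators gave 1 call among 12 compared, and the list of muscle secreted factors gave 1 among 19. SFRP2, a Wnt antagonist, read 6.87 FPKM in psoas and 1.94 in longissimus (1.42), and its relative FRZB read 14.3 and 7.80 (0.80), uncalled. PGF, a ligand of the VEGF receptor FLT1, read 0.905 and 4.29 (-1.47), while VEGFA read 42.7 and 20.9 (0.99). Among 31 guidance genes the artery ephrin EFNB2 was called at 3.60 and 0.413 (1.70). In the chemokine list, CCL2, which attracts monocytes, read 13.1 FPKM in psoas and 1.90 in longissimus (2.28), CXCL2, which attracts neutrophils, read 3.09 and 0.520 (1.43), and CCL14 read 5.03 and 13.04 (-1.22). The other 28 of 31 were uncalled. Over all genes whose symbol names a secreted factor or receptor family, 5 of 286 (1.75%) were called towards psoas and 6 (2.1%) towards longissimus. Both lay near the shares of all genes, 2.15% and 2.07%. The 6 include IGFN1, a Z-disc and filament protein gene that entered by its symbol alone.

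**Figure D2:**
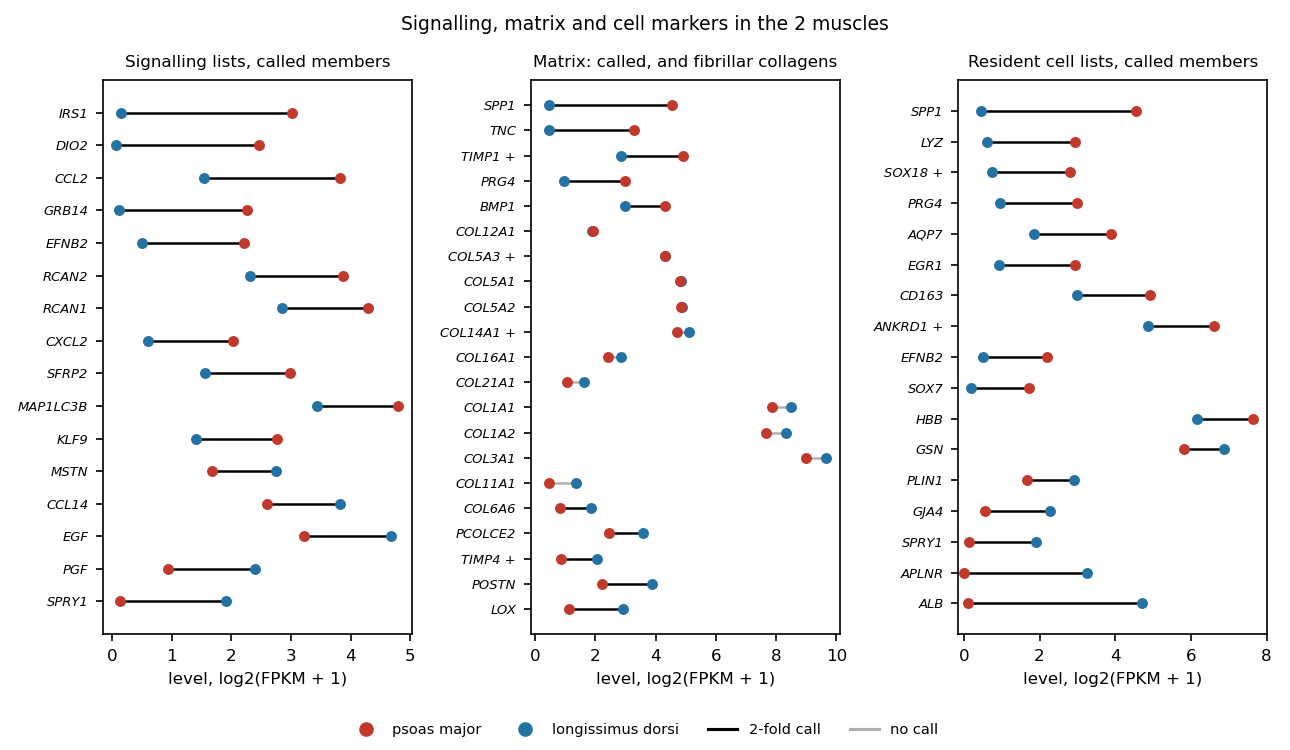
Levels on the log2(FPKM + 1) scale in psoas major (red) and longissimus dorsi (blue) for called members of the signalling lists, for called matrix genes together with all fibrillar collagens compared, and for called members of the cell lists. Black lines mark calls and grey lines uncalled genes, and a plus marks overlapping gene models. The fibrillar collagens and partners in the middle panel are uncalled, and COL3A1, COL1A1 and COL1A2 read higher in longissimus.

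Most fibrillar collagens and their partners read lower in psoas, and none reached a call. COL3A1, COL1A1 and COL1A2, the main interstitial collagens, read 503, 231 and 204 FPKM in psoas and 803, 355 and 317 in longissimus, with differences of -0.67, -0.62 and -0.64. All 11 genes compared from the list of fibrillar collagens and partners lay below the median of 0.27, and the list median was -0.42. The partners include the fibril-associated collagens COL12A1 and COL14A1. COL5A3 (0.01) and COL12A1 (0.03) read slightly higher in psoas as deposited. Decorin (DCN), a small proteoglycan on collagen fibrils, read 131 and 239 (-0.86), elastin (ELN) 70.8 and 113 (-0.66), and matrix Gla protein (MGP) 47.5 and 87.7 (-0.87). Other matrix genes read higher in psoas, also uncalled. The small proteoglycans LUM and BGN read 12.5 and 8.14 (0.57) and 24.6 and 19.6 (0.31), VCAN, a large proteoglycan whose model overlaps TMEM167A, read 5.02 and 2.41 (0.82), and fibronectin (FN1) read 36.5 and 28.2 (0.36). Of 20 proteoglycan genes compared 9 lay above the median, with a list median of 0.23, and of 36 matrix glycoprotein and elastic fibre genes 9 did, with a list median of -0.27. Basement membrane genes were closer. LAMC1, the laminin gamma chain, read 36.8 and 39.8, and COL4A2 read 66.1 and 60.8. No call was made among 30 laminin, nidogen and receptor genes.

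Single matrix genes were called in each direction. Towards longissimus, POSTN, periostin, read 3.69 FPKM in psoas and 13.9 in longissimus (-1.67). LOX, the lysyl oxidase that crosslinks collagen, read 1.16 and 6.49 (-1.80), PCOLCE2, an enhancer of procollagen cleavage, read 4.46 and 10.8 (-1.12), and COL6A6 read 0.766 and 2.58 (-1.02). The crosslinking relative LOXL2 went the other way, at 8.84 and 4.73 (0.78), uncalled. Towards psoas, SPP1, osteopontin (ENSSSCG00000009216, chromosome 8, 131077026 to 131085759), read 22.3 FPKM in psoas and 0.372 in longissimus, a difference of 4.09, and the longissimus value was the lowest of the 10 libraries. TNC, tenascin C of tendon and injured tissue, read 8.79 and 0.382 (2.83). PRG4, lubricin of joint and tendon surfaces, read 6.98 and 0.922 (2.05). The protease BMP1, which cleaves procollagen, read 19.0 and 6.99 (1.32). TIMP1, a metalloprotease inhibitor whose gene model overlaps SYN1, read 29.3 and 6.16 (2.08), while TIMP4, which overlaps SYN2, read 0.825 and 3.13 (-1.18). Over all genes whose symbol names a matrix family, 5 of 152 (3.29%) were called towards psoas and 6 (3.95%) towards longissimus. The 6 include IGFN1, a Z-disc and filament protein gene that entered by its symbol alone. The shares of all genes compared were 2.15% and 2.07%.

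Resident cells were read from marker lists. Macrophage markers summed to 131 FPKM in psoas and 80.1 in longissimus, and 11 of 16 compared lay above the median. CD163, the haemoglobin scavenger receptor of tissue macrophages, read 29.4 and 7.005 (1.93), and lysozyme (LYZ) read 6.61 and 0.517 (2.33). These 2 of 16 were called, and much of the gap between the sums came from them. The complement genes C1QA, C1QB and C1QC differed by 0.44 or less, and FOLR2, a marker of resident macrophages, read 4.94 and 9.70 (-0.85). Markers of T and NK cells, B cells and granulocytes were near the filter: 2 of 15, 2 of 13 and 4 of 15 matched genes reached 1 FPKM in either muscle, and none was called.

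Globin transcripts were measured as a sign of blood in the tissue. HBB, the beta chain of haemoglobin, read 198 FPKM in psoas and 70.1 in longissimus (1.49), and the alpha-like gene HBM read 1.14 and 0.315 (0.70). The erythroid list summed to 201 FPKM in psoas and 71.8 in longissimus, nearly all of it HBB, so the sum adds little to that gene. Of its 10 matched genes 3 were compared, all above the median of 0.27. HBM passed the filter only through psoas, and ALAS2, at 0.28, lay next to the median. The part of blood in the macrophage and chemokine values was not tested.

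Vessel markers varied by gene and by list. PECAM1, an adhesion molecule of all endothelium, read 40.2 FPKM in psoas and 41.8 in longissimus, and CDH5, the endothelial cadherin, read 15.4 and 17.6. KDR, the main VEGF receptor, read 11.4 and 6.24 (0.77), and the guidance receptor ROBO4 read 4.84 and 2.64 (0.68). Among the 17 endothelial genes 11 lay above the median of all genes, and the middle value was 0.35. Of 9 vein and lymphatic genes 1 lay above it, none was called, and the middle value was -0.26. Of 17 endothelial genes, the transcription factors SOX18 (5.96 and 0.663, 2.07, overlapping TCEA2) and SOX7 (2.30 and 0.140, 1.53) were called higher in psoas. APLNR, the apelin receptor, was listed at 0 in psoas and read 8.53 in longissimus, but it was also listed at 0 in lung and adipose tissue. The artery connexin GJA4 read 0.475 and 3.88 (-1.73), opposite to the artery ephrin EFNB2. Among 18 pericyte and smooth muscle genes none was called and 15 lay above the median, with RGS5 at 43.6 and 21.8 (0.97), ACTA2 at 88.0 and 48.6 (0.84) and SMTN at 27.6 and 12.2 (1.12).

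Progenitor, fat and nerve lists had medians of -0.14, -0.24 and -0.21, below that of all genes. Of 17 markers of fibro-adipogenic progenitors, only GSN, gelsolin, was called, at 55.1 FPKM in psoas and 116 in longissimus (-1.06), while the defining receptor PDGFRA read 6.16 and 6.48. Adipocyte genes divided. PLIN1, the droplet coat of fat cells, read 2.17 and 6.56 (-1.25), and ADIPOQ, adiponectin, read 5.42 and 10.1 (-0.79). AQP7, a glycerol channel, read 13.8 and 2.64 (2.03). It was the only adipocyte gene called towards psoas, and 3 of 15 lay above the median. Schwann cell genes had no call among 8, with a list median of -0.21. Satellite cell genes other than SPRY1 were uncalled, with PAX7 at 1.33 and 1.06 and VCAM1 at 7.72 and 14.3 (-0.81).

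Tendon markers also divided. The stretch-response gene ANKRD1 (overlapping RPP30) read 96.1 FPKM in psoas and 28.1 in longissimus (1.74). With PRG4 and EGR1 it made 3 calls among 11, against 2.15% of all genes. EGR1 is also counted among the immediate early genes. Of the 11, 4 lay above the median of all genes, and the list median was -0.19. FMOD and KERA, small proteoglycans of tendon, read 1.34 and 3.39 (-0.91) and 0.982 and 2.42 (-0.79), below the median, and THBS4 read 33.8 and 45.3 (-0.41).

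**Figure D3:**
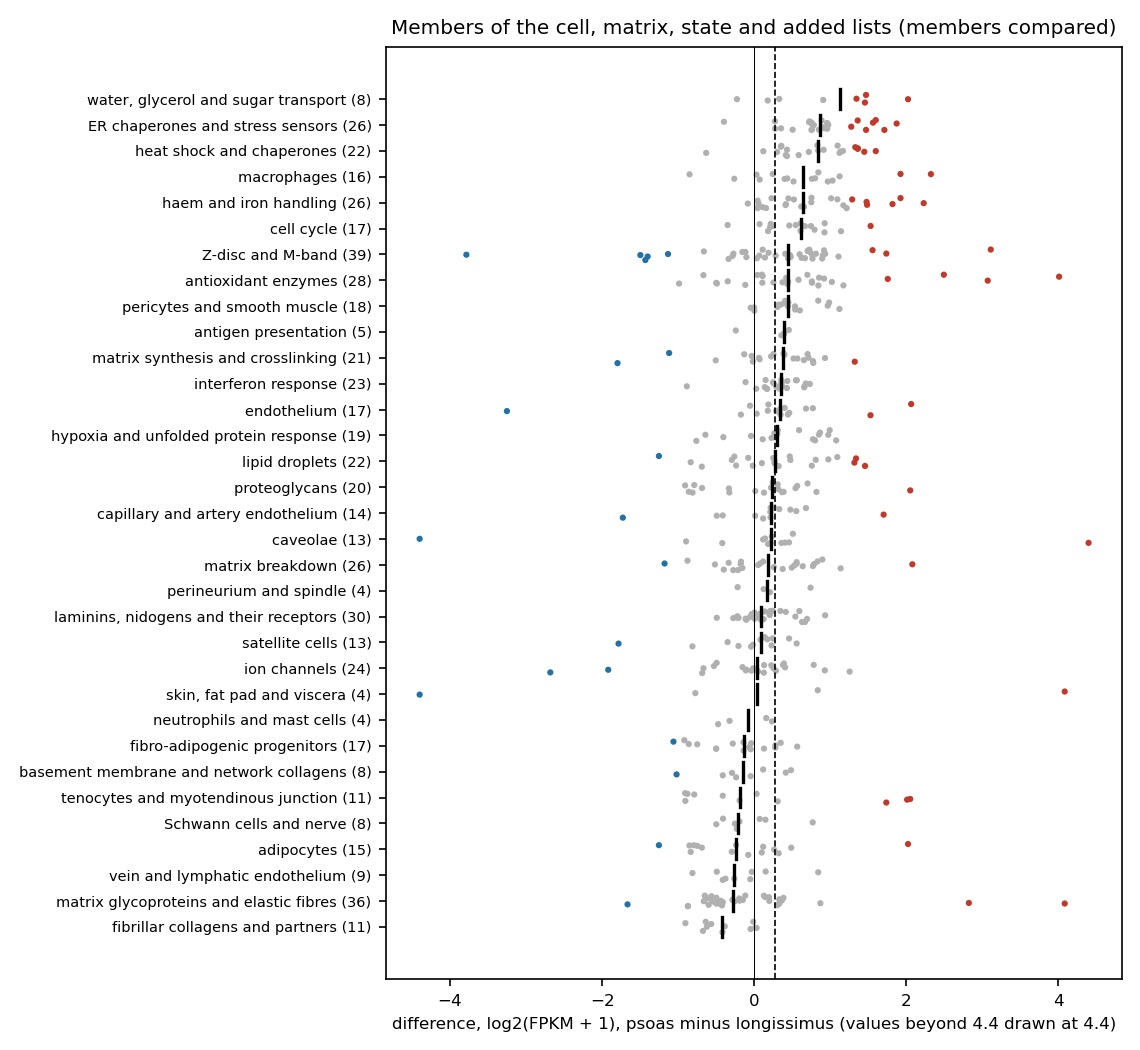
Each point is a gene compared, with the difference psoas minus longissimus on the x axis in log2(FPKM + 1), in rows by list with the number of members compared, ordered by the list median (black bar). Red and blue points are calls towards psoas and longissimus, and the dashed line is the median of all genes at 0.27. Among the lists drawn, fibrillar collagens and partners have the lowest median, at -0.42. Water, glycerol and sugar transport has the highest, at 1.13. Heat shock and chaperones stand at 0.84, below chaperones and stress sensors of the endoplasmic reticulum at 0.87. Chaperones of the endoplasmic reticulum, haem and iron, antioxidants, lipid droplets, transport, ion channels, caveolae and Z-disc are 8 lists written after values had been seen.

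Heat shock and chaperone genes had the highest median of the 60 lists. Of 22 heat shock and chaperone genes, 5 were called higher in psoas and none in longissimus, against 2.15% and 2.07% of all genes. In this list 20 lay above the median, with a list median of 0.84. The 5 calls include HSPA5 and HSP90B1, which are counted again in the endoplasmic reticulum list given at the end. HSPB7, a small heat shock protein of muscle, read 131 FPKM in psoas and 47.3 in longissimus (1.45), DNAJB1 read 8.53 and 2.70 (1.37) and CHORDC1 read 10.7 and 3.65 (1.33). CRYAB and HSP90AA1 read 938 and 426 (1.14) and 306 and 135 (1.17), above 2-fold as deposited only, and the CRYAB model overlaps HSPB2. The hypoxia and unfolded protein response list had no call among 19, with 12 above the median and a list median of 0.31. Interferon response genes had no call among 23, with a median of 0.36. Of 17 cell cycle genes only UBE2C was called, at 3.62 and 0.597 (1.53), with 11 above the median.

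Among sarcomere genes IGFN1, a Z-disc and filament protein (ENSSSCG00000036948, chromosome 10, 23628938 to 23663545), read 32.0 FPKM in psoas and 454 in longissimus (-3.79), and its highest value outside muscle tissue and the pool was 12.3 in lung. ACTC1, the cardiac alpha actin that developing and regenerating fibres also use, read 217 and 24.1 (3.11) against 3517 in heart. CAV3 and CAVIN1, which encode the caveolin and a coat protein of muscle caveolae, gave the largest differences each way, CAV3 at 42.0 FPKM in psoas and 0.275 in longissimus and CAVIN1 at 0.440 and 60.0. The relatives CAV1, CAV2 and CAVIN2 read 35.6 and 30.5, 13.5 and 9.19, and 8.48 and 6.39, with no call. CAV3 read 0.170 FPKM in heart, a tissue known to express it, and CAVIN1 read 4.20 FPKM or more in every library but psoas. With such values in single libraries, these 2 differences are given as deposited and nothing is rested on them.

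Most liver-restricted genes read higher in longissimus. ALB, serum albumin, read 0.0864 FPKM in psoas and 25.0 in longissimus, against 30453 in liver. A set of 62 genes at 100 FPKM or more in liver and 50-fold or more above each of the other non-muscle tissues was formed without reference to the muscles. Their median was 0.0603% of the liver level in longissimus and 0% in psoas, 49 of 62 were higher in longissimus and 11 in psoas. For ALB the share was 0.082% of liver in longissimus, 0.417% in adipose tissue and 0.000284% in psoas. APOC3 and AHSG read 10.3 and 4.49 FPKM in longissimus and were listed at 0 in psoas, and TF read 6.83 in longissimus and 0.373 in psoas. Of the 191 calls with a symbol towards longissimus, 14 belonged to this set, and none of the 209 towards psoas did. A call needs 1 FPKM in either muscle, which 17 of the 62 reached in longissimus and 3 in psoas. The filter thus largely sets this split, which describes and does not test. The sum over the set had the opposite order, at 226 FPKM (0.207% of the liver level) in psoas and 208 (0.191%) in longissimus. Most of the psoas sum came from ITIH4 at 192 and 109 FPKM and SLC38A4 at 29.0 and 19.1, the 2 genes of the set with the highest muscle values, both higher in psoas. All 5 adipose-restricted genes were also higher in longissimus, CIDEA at 2.46 and 4.57 and CA3, which fast muscle also makes, at 43.0 and 207 among them. Of 22 kidney-restricted genes 14 were higher in longissimus and 4 in psoas. Their sums were 9.43 FPKM (0.11% of their kidney level) in psoas and 26.1 (0.305%) in longissimus. Most of both sums was EGF alone, at 8.24 and 24.5 FPKM, so they say little about the other kidney genes. Of 8 lung-restricted genes 4 were higher in longissimus and 1 in psoas, with nearly equal sums of 0.0248% and 0.0239% of their lung level in psoas and longissimus. Why liver transcripts were present was not tested.

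**Figure D4:**
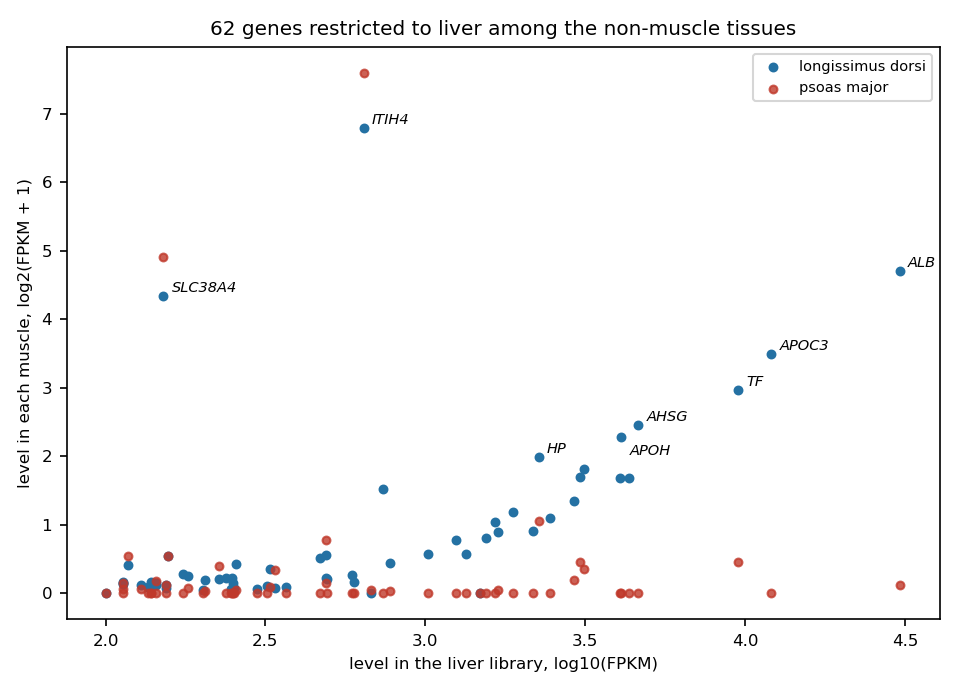
Each of 62 liver-restricted genes has its level in the liver library on the x axis, log10(FPKM), and its level in psoas major (red) and longissimus dorsi (blue) on the y axis, log2(FPKM + 1). In longissimus most levels climb with the liver level, with ALB at 25.0 FPKM, while most psoas points lie at or near 0. ITIH4 at 109 FPKM and SLC38A4 at 19.1 in longissimus stand above that climb.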

How the data were processed

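RNA abundance was taken from the table the authors deposited, with 1 value per gene and library for 25880 genes. The values of that deposited table were read as FPKM, which its header does not name; the unit was inferred from the values and from StringTie being listed. The submitters' processing notes name the pig assembly Sscrofa11.1 and the tools StringTie (1.2.2) and TopHat2 (2.1.0). For their settings, the annotation, filters and strandedness, the sources used here state nothing.

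Symbols came from Ensembl identifiers (14857 genes) or reciprocal overlap with RefSeq genes of the same assembly (1715 genes), 64.0% in all. Of the named genes compared, 17.2% overlapped another gene model, and those named in the text are marked. Some list members counted in the lists are not reported here by name. Genes of the mitochondrial genome (5) were left out. FPKM were compared as log2(FPKM + 1), psoas minus longissimus, at 1 FPKM or more in either muscle. A call needs 2-fold both as deposited and after subtracting the median. The procedure was tested on simulated data.

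The muscles and the gene lists (60) were chosen with earlier results of these data known, and 8 further lists and the tissue-restricted sets were written after values had been seen. Named were list members, the 30 largest differences each way at 5 FPKM or more, the 15 largest each way at 2 FPKM or more among transcription factor, secreted or receptor and matrix families, genes below 0.2 FPKM in one muscle and at 2 or more in the other, and PITX1, TBX1, MYH4, FABP3 and IGFN1. The alternatives changed the pseudocount, filter, fold and scaling. No test was possible with 1 library per muscle. Python 3.11.15, numpy 2.4.6, pandas 2.3.3 and matplotlib 3.10.9 were used.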

Additional observations from a re-analysis of the deposited data

How the results depend on the processing

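Against 226 genes higher in psoas and 218 higher in longissimus, a pseudocount of 0.1 gave 484 and 343 and a pseudocount of 5 gave 94 and 75. Without a filter, or as deposited only, 488 genes were higher in psoas. A level of 5 FPKM in either muscle left 123 higher in longissimus, and 1 FPKM in both muscles left 113. Centring alone gave 395 higher in longissimus, median-of-ratios factors 515 and quantile normalisation 366. A fold of 1.5 gave 776 and 528, a fold of 3 gave 66 and 67, and a fold of 4 gave 39 and 38. Leaving out genes listed at 0 in either muscle, chosen after seeing the data, gave 212 and 185. The other settings stayed within 1.5 times of the counts above. Of 172 named genes with a call, 80 kept it in every setting that still compared them, the changed folds set aside, and none changed direction. A gene that a filter removed was not scored in that setting. PITX1, listed at 0 in longissimus, was thus not scored at 1 FPKM in both muscles, and is among the 80. TBX1, HOXA10, BCL6 and MAF are among them too. LBX1, ZIC1, MEOX2, HOXC8, HOXC9, HOXD9, PPARGC1A, PPARA, ESRRG and NR4A1 are not, and each lost its call in at least 1 setting. The pseudocount of 5 ended 83 named calls. The cause was not tested beyond what each setting does by construction. No paired analysis was possible because each muscle has 1 library. At 1 FPKM about 11.5 fragments per kilobase in psoas and 13 in longissimus stand behind a value, and differences among genes near that level are limited by this depth.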

Other observations

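The following groups were listed after their values had been seen, so their counts describe and do not test. Of 26 chaperones and stress sensors of the endoplasmic reticulum, which fold secreted and membrane proteins or sense their misfolding, 7 were called higher in psoas and none in longissimus, against 2.15% and 2.07% of all genes. The other 19 were not called, and 25 of the 26 lay above the median of all genes. The chaperone HSPA5 read 78.6 FPKM in psoas and 25.2 in longissimus (1.6). HSPA5 and HSP90B1 are also among the calls of the heat shock and chaperone list, so the 2 counts are not separate. The sensor ATF6 read 8.22 and 1.51 (1.88), WFS1 read 6.98 and 1.43 (1.71) and HYOU1 read 8.96 and 2.37 (1.56). The disulfide isomerase P4HB was the exception below the median, at 49.0 and 64.9. The hypoxia and unfolded protein response list, 1 of the 60, had no call among 19 and a median of 0.31.

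Genes of haem and iron handling were called higher in psoas for 6 of 26, with none towards longissimus, against 2.15% and 2.07% of all genes. HMOX1, which breaks down haem, read 11.5 FPKM in psoas and 1.67 in longissimus (2.23). The haem transporter SLC48A1 read 9.15 and 1.87 (1.82), the iron exporter SLC40A1 read 20.2 and 7.67 (1.29) and the transferrin receptor TFRC, whose model overlaps ZDHHC19, read 67.8 and 23.6 (1.49). The ferritin chains FTH1 and FTL (overlapping GYS1) read 1335 and 1294, and 306 and 230, with no call. CD163 belongs to the same list and also to the macrophage markers. HBB moved in the same direction (198 and 70.1), and the part of blood in these values was not tested.

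Antioxidant enzymes gave 4 calls among 28, all towards psoas, against 2.15% of all genes called in that direction. SOD2, the mitochondrial superoxide dismutase, read 129 FPKM in psoas and 22.1 in longissimus (2.50). GPX1, the main cytosolic glutathione peroxidase, read 25.4 and 0.636 (4.01), and ran from 1.17 FPKM in heart to 242 in spleen elsewhere. SRXN1 read 5.75 and 0.995 (1.76), and GPX2, which overlaps CHURC1, read 26.4 and 2.25 (3.07). Catalase (CAT) read 126 and 105, and GCLM read 3.30 and 7.53 (-0.99), both uncalled.

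Of 8 water and sugar transport genes 4 were called higher in psoas, against 2.15% of all genes. They were AQP4 at 42.6 and 16.1 FPKM (1.35), AQP7, SLC2A3 at 5.06 and 1.21 (1.46) and SLC2A5 at 2.51 and 0.266 (1.47). Droplet genes of fibres and of fat cells differed in direction, with PLIN2 at 38.3 and 14.5 (1.34), PLIN5 at 42.6 and 16.5 (1.32) and ACSL1 at 342 and 124 (1.46), against PLIN1 at 2.17 and 6.56. Among 24 ion channels the inward rectifier KCNJ2 was called lower in psoas, at 1.02 and 6.64 (-1.92), and ORAI1 was listed at 0 in psoas and read 5.41 in longissimus.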
